A study of Homo sapiens with 24 samples.

Results

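Fatty acid oxidation and the peroxisome were followed through 42 genes in HepaRG cells, a human liver progenitor line that gives rise to hepatocyte-like and biliary-like cells. The list was made of 24 genes of mitochondrial oxidation, 10 of peroxisomal oxidation and 8 peroxins, and a gene was measured through probe sets that the array's annotation names for it alone. By this rule 39 genes were measured, out of 9966 genes tested on the array: 23 of mitochondrial oxidation, 9 of peroxisomal oxidation and 7 peroxins. ACSL3, SCP2 and PEX13 were not analysed here. All samples came from cultures grown for 2 weeks in William's E medium with serum (fetal bovine), insulin, hydrocortisone hemisuccinate, penicillin and streptomycin. DMSO was then added for another 2 weeks. The hepatocyte-like cells were detached with mild trypsin and plated again at low density, the step that the labels give as the trigger of reprogramming. RNA was taken at the start (0 h) and after 1, 4 and 8 h, and then after 12, 16, 24 and 48 h, with 3 arrays a time. All groups are this 1 cell line. The labels do not say whether the 3 arrays of a time came from separate cultures, so the p-values measure no more than the spread of these samples, and this may be technical. The 3'/5' signal ratio of ACTB, a measure that is higher in degraded RNA, set 1 array apart. The array of 0 h replicate 2 had a ratio of 6.91, where the other 0 h arrays had 2.03 and 2.56 and those of 48 h had 1.02 to 1.27.

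Fatty acids are activated to coenzyme A esters by acyl-CoA synthetases and carried into mitochondria by the carnitine shuttle, where repeated rounds of dehydrogenation, hydration, a second dehydrogenation and thiolysis cut them into acetyl-CoA. Peroxisomes shorten very long, branched and dicarboxylic fatty acids and the side chain of bile acid precursors by a parallel set of enzymes, and their first step makes hydrogen peroxide, which catalase removes. Peroxins are the proteins that build peroxisomes and import their enzymes. Hepatocytes are rich in both pathways, and in liver many of these genes are known targets of the nuclear receptor PPAR alpha.

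Of the 39 genes 26 were called lower than at 0 h at 1 or more of the 7 later times, against 24% of all genes, and 0 were called higher at any time. BDH1, ACSL1, EHHADH and ACOX2 were among those with the deepest changes, and CPT1A, ECI2, AMACR, PEX3 and PEX14 were among the 13 that were never called. Levels are MAS5 signals, linear brightness values of a probe set, and changes are differences of log2(signal + 18) between means of 3 arrays, given with their standard error (SE). A gene was called lower or higher when limma's adjusted p was under 0.05 and the difference was at least 2-fold. At 1 h 0 genes were called in either direction, with 4 lower and 0 higher at an unadjusted p under 0.05 (0.602% of all genes were called lower and 2.22% higher). At 4 h 4 of 39 were called lower, against 7.1% of all genes tested. The count rose to 9 genes at 8 h (10.1% of all genes) and to 12 genes at 12 h (10.6% of all genes). It was 21 genes at 16 h (11.9% of all genes), 18 genes at 24 h (11.2% of all genes) and 19 genes at 48 h (11.7% of all genes). None of the 39 had a higher level even at an unadjusted p under 0.05, while the share of all genes called higher was 7.6% (4 h), 8.41% (8 h), 8.72% (12 h), 9.19% (16 h), 10.4% (24 h) and 9.82% (48 h). These comparisons share the 0 h arrays, so their counts are not independent. The median log2 change of the 39 genes moved from -0.41 (4 h) and -0.61 (8 h) to -0.89 (12 h) and -1.08 (16 h), and was -0.84 (24 h) and -0.98 (48 h) after that. The median of all genes stayed between -0.09 and -0.16 from 4 h on. With every array centred on its median the counts of genes called lower were smaller at every time from 4 h on. They were 1 at 4 h (5.06% of all genes), 6 at 8 h (7.24%), 11 at 12 h (8.13%) and 13 at 16 h (8.1%). At 24 h 13 were called lower (9.07%) and at 48 h 14 (9.22%), and still 0 genes were called higher at any time. Without 0 h replicate 2, the array with the high ACTB ratio, the numbers called lower were 4 (4 h), 8 (8 h), 13 (12 h), 20 (16 h), 17 (24 h) and 18 (48 h).

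The 26 genes called lower were 14 of 23 genes of mitochondrial oxidation, 8 of 9 of peroxisomal oxidation and 4 of 7 peroxins. The moderated F-test over all times passed for 36 of 39 genes, against 58.9% of all genes, and it did not pass for AMACR, PEX3 and PEX14. The first genes to be called were CPT2, EHHADH, ABCD3 and PEX19 at 4 h, though a second PEX19 probe set gave -0.54 there. Another 6 genes followed at 8 h, 3 genes at 12 h, 8 genes at 16 h, 2 genes at 24 h and 3 genes at 48 h. CAT was among those of 8 h, though a second CAT probe set gave -0.47 there. The lowest mean signal fell at 48 h for 16 genes, at 16 h for 11 genes and at 24 h for 6 genes.

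In many of the 39 genes the arrays of a later time did not overlap with those of 0 h. All 3 arrays lay below all 3 of 0 h for 7 genes at 1 h (13.4% of all genes), 24 genes at 4 h (25% of all genes), 27 genes at 8 h (26.1% of all genes) and 31 genes at 12 h (26.5% of all genes). The numbers were 30 genes at 16 h (26.6% of all genes), 31 genes at 24 h (24.4% of all genes) and 33 genes at 48 h (26.5% of all genes). All 3 arrays lay above those of 0 h for 1 gene each at 1 h (BDH1; 7.73% of all genes), 4 h (ACSL4; 15.9% of all genes) and 8 h (CPT1A; 19.1% of all genes). No gene did so at 12 h (20.4% of all genes), 16 h (20.9%), 24 h (22.3%) or 48 h (22.7%).

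**Figure D1:**
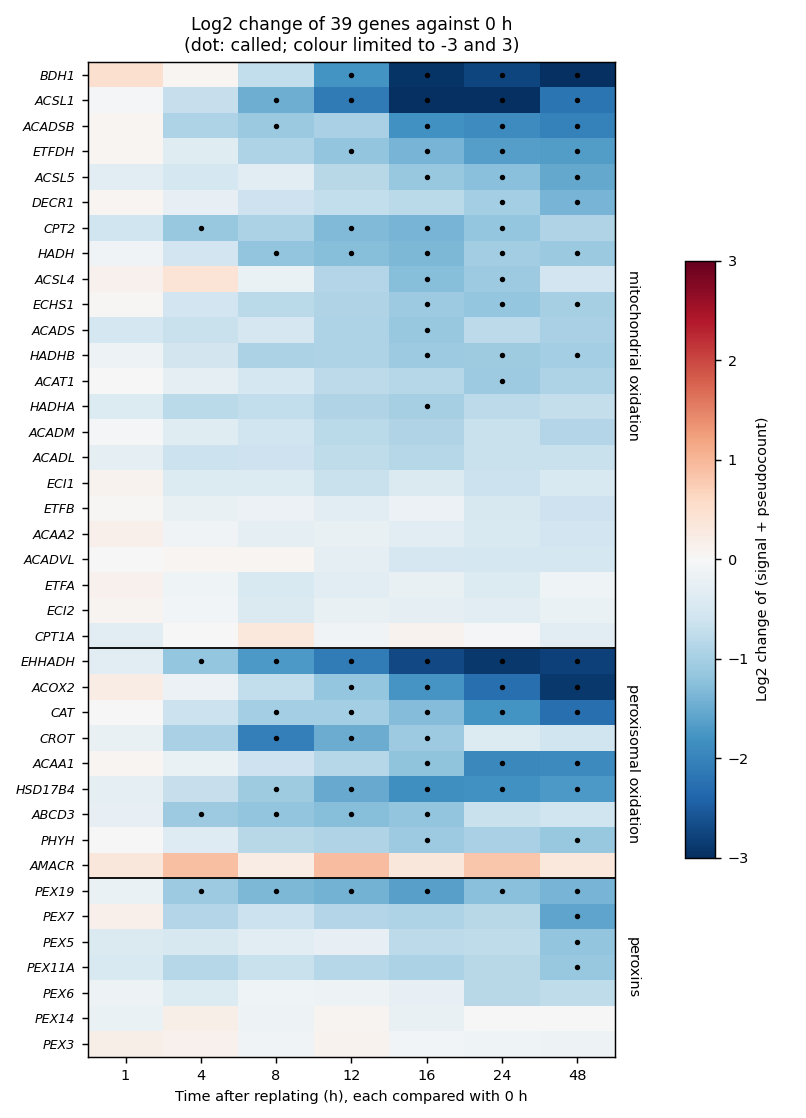
Log2 change of the 39 genes (rows, in their groups and ordered by largest change) at each later time against 0 h (columns), from means of 3 arrays; dots mark called changes, and colours stop at -3 and 3. In most rows the blue is deeper at 16 h than at 4 h, and 21 rows carry a dot at 16 h. The rows without a dot are 13, AMACR, PEX14 and PEX3 among them.

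**Figure D2:**
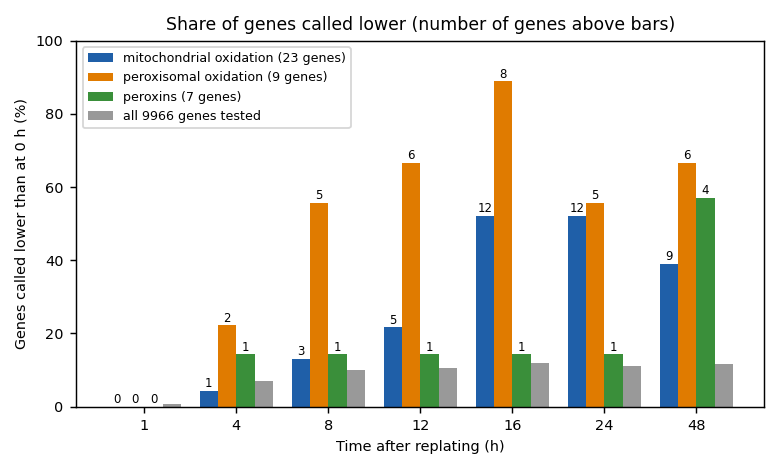
Share of genes called lower than at 0 h (vertical axis, percent) at each later time (horizontal axis, hours, evenly spaced), for the genes of mitochondrial oxidation, those of peroxisomal oxidation, the peroxins and all 9966 genes tested, with the number of genes above each coloured bar. At 16 h the bars stand for 12 of 23 genes, 8 of 9 genes and 1 of 7 genes, beside 11.9% of all genes.

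Of the 5 measured genes for the activation of fatty acids and their entry into mitochondria 4 were called lower at 16 h and 24 h (11.9% and 11.2% of all genes). CPT1A was called at no time. ACSL1, the main long-chain acyl-CoA synthetase of liver, had signals of 9224, 12733 and 11604 at 0 h, 10708, 10329.9 and 10695 at 1 h, 7299, 6255 and 6969.9 at 4 h, and 4366, 4065 and 3689 at 8 h. They were 2156, 2449 and 3086 at 12 h, 1279, 1338 and 1460.3 at 16 h, 815, 1058 and 1596 at 24 h, and 2134, 2511 and 2607 at 48 h. All arrays from 4 h on lay below every 0 h array. The level at 24 h was 10.3% of that at 0 h, and the arrays of 48 h lay above those of 24 h. The log2 change was -3.30 ± 0.17 (SE, adjusted p = 6.3e-17) at 24 h and -2.19 ± 0.17 (SE, adjusted p = 8.3e-13) at 48 h. The rise from 24 h to 48 h was called as well (1.10 ± 0.17, adjusted p = 2.9e-05; 0.321% of all genes were called higher in that step), though not without 24 h replicate 1. A second probe set of ACSL1 changed by -4.15 at 24 h. ACSL5, a synthetase of the endoplasmic reticulum and mitochondria, had signals of 2568, 2946 and 2599 at 0 h, 1995, 2175 and 2179 at 1 h, 1733, 1747 and 2151 at 4 h, and 2569.9, 1839 and 2090.0 at 8 h. They were 1774, 1509.8 and 1270.4 at 12 h, 1278, 1251 and 1142 at 16 h, 1228, 1128 and 996 at 24 h, and 994, 882 and 887 at 48 h. Its arrays of 1 h already lay below those of 0 h, and those of 8 h overlapped with them. The log2 change reached -1.54 ± 0.14 (SE, adjusted p = 1.1e-10) at 48 h. ACSL4, a synthetase that prefers arachidonic acid, was called lower at 16 h and 24 h, with a log2 change of -1.28 ± 0.24 (SE, adjusted p = 5.9e-05) at 16 h. All 3 of its arrays of 4 h lay above those of 0 h.

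CPT1A and CPT2 are the outer and inner carnitine palmitoyltransferases, and CPT1A is the step at which entry into mitochondria is controlled. CPT2 had signals of 694, 909.8 and 811 at 0 h, 473, 597 and 507 at 1 h, 276, 381 and 428 at 4 h, and 380.2, 371 and 485 at 8 h. They were 406, 336 and 215 at 12 h, 324, 429.9 and 179 at 16 h, 297, 449 and 321 at 24 h, and 482, 393 and 392 at 48 h. All its later arrays lay below every 0 h array. CPT2 changed by -1.13 ± 0.25 (SE, adjusted p = 0.0006) at 4 h and -1.39 ± 0.25 (SE, adjusted p = 2.7e-05) at 16 h. At 48 h it was -0.90 ± 0.25 (SE, adjusted p = 0.0041) and was not called. The other CPT2 probe set gave -1.22 at 4 h and -1.34 at 16 h. CPT1A had signals of 1315, 1227 and 1210.2 at 0 h, 964, 1104 and 940.1 at 1 h, 1005, 1588 and 1198 at 4 h, and 1744, 1504 and 1435 at 8 h. They were 1349.8, 1138 and 1034 at 12 h, 1228, 1387 and 1461 at 16 h, 1463, 1169 and 1064 at 24 h, and 808, 1061 and 1141 at 48 h. Its arrays lay below those of 0 h at 1 h and 48 h and above them at 8 h. The largest log2 change was -0.33 ± 0.16 (SE, adjusted p = 0.11) at 48 h, under the 2-fold limit, and CPT1A was called at no time. The 3 dimmer probe sets of CPT1A gave between -0.11 and 0.22 at 48 h, so they differed in sign.

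**Figure D3:**
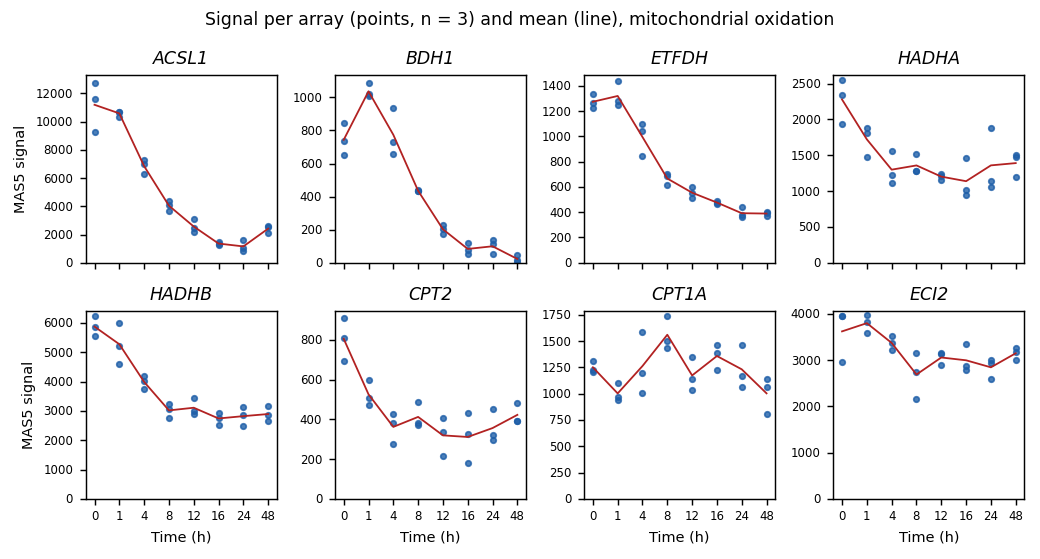
MAS5 signal (vertical axes, linear, from 0) at each time (horizontal axes, hours, evenly spaced) for 8 genes of mitochondrial oxidation; points are arrays, n = 3 a time, and lines join the means. ACSL1 falls to a mean of 1156 at 24 h and stands at 2417 at 48 h. BDH1 has its lowest mean at 48 h, and the points of ECI2 overlap with those of 0 h at every time.

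The acyl-CoA dehydrogenases take the first step of each round and differ in the chain length they accept. ACADSB, which acts on short branched chains from isoleucine, changed most. Its signals were 528, 679 and 460.1 at 0 h, 514, 926 and 394 at 1 h, 267, 396 and 208 at 4 h, and 349.6, 259 and 157 at 8 h. They were 269.9, 235 and 309.7 at 12 h, 128, 220.0 and 103 at 16 h, 93.5, 146 and 175 at 24 h, and 117, 122 and 122 at 48 h. From 4 h on no array reached the lowest 0 h array. The log2 change was -1.12 ± 0.31 (SE, adjusted p = 0.0045) at 8 h and -2.03 ± 0.31 (SE, adjusted p = 2.3e-06) at 48 h. ACADS, the short-chain enzyme, was called lower at 16 h (-1.15 ± 0.30, adjusted p = 0.0024). Its change came under 2-fold with a larger pseudocount (-0.92), with quantile normalization (-0.96), with median centring (-0.96), without 0 h replicate 2 (-0.92) and without 16 h replicate 3 (-0.97). ACADM (medium-chain; -0.90 ± 0.18, adjusted p = 0.00014 at 16 h), ACADL (long-chain; -0.85 ± 0.18, adjusted p = 0.00022 at 16 h) and ACADVL (very-long-chain; -0.53 ± 0.17, adjusted p = 0.013 at 48 h) stayed under the 2-fold limit at every time. ACADM passed it at 16 h without 0 h replicate 3 or without 16 h replicate 3 (-1.03 in the latter case), and ACADL with the mean of its probe sets (-1.01). At 48 h all 3 arrays of each of these 3 genes lay below those of 0 h.

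The electrons from these dehydrogenases pass through the electron transfer flavoprotein, made of ETFA and ETFB, to ETFDH, which hands them to ubiquinone. ETFDH had signals of 1333, 1223 and 1267 at 0 h, 1277, 1436 and 1248 at 1 h, 842, 1100.3 and 1044 at 4 h, and 686, 616 and 699 at 8 h. They were 512, 552 and 599.9 at 12 h, 476, 467 and 487 at 16 h, 359.9, 377 and 439 at 24 h, and 405, 366 and 397 at 48 h. All its arrays lay below those of 0 h from 4 h on. ETFDH changed by -1.18 ± 0.15 (SE, adjusted p = 8.5e-08) at 12 h and -1.67 ± 0.15 (SE, adjusted p = 4.3e-11) at 48 h, with -1.18 at 48 h for the other probe set. ETFA (-0.45 ± 0.13, adjusted p = 0.0079 at 8 h) and ETFB (-0.63 ± 0.12, adjusted p = 4.7e-05 at 48 h) were called at no time.

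The remaining steps of the round are carried out by ECHS1, a hydratase, HADH, the dehydrogenase for shorter chains, the trifunctional protein of HADHA and HADHB, and the thiolases ACAA2 and ACAT1. HADH had signals of 5680.1, 6426 and 5442 at 0 h, 4903, 5882 and 5476 at 1 h, 3157, 4369 and 4256 at 4 h, and 2682, 2647 and 2375 at 8 h. They were 2328, 2610.1 and 2301 at 12 h, 1936, 2115 and 2843 at 16 h, 2623, 2779 and 3061 at 24 h, and 2623, 2608 and 2905 at 48 h. Every array from 4 h on lay below all arrays of 0 h. The log2 change was -1.18 ± 0.14 (SE, adjusted p = 2.4e-08) at 8 h and -1.36 ± 0.14 (SE, adjusted p = 1.1e-09) at 16 h, with -1.59 and -1.54 for the other probe sets at 16 h. ECHS1 was called lower at 16, 24 and 48 h, with -1.15 ± 0.11 (SE, adjusted p = 5.1e-10) at 24 h. ACAT1, which also splits and makes acetoacetyl-CoA in ketone body metabolism, had -1.09 ± 0.11 (SE, adjusted p = 6.9e-10) at 24 h, the only time it was called, and came under 2-fold with median centring (-0.96). ACAA2 reached -0.58 ± 0.13 (SE, adjusted p = 0.00053) at 48 h and was not called.

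HADHB was called lower at 16, 24 and 48 h, and its signals were 5852, 6234 and 5543 at 0 h and 2755, 2533 and 2938 at 16 h (-1.10 ± 0.12, adjusted p = 8.8e-09). With median centring the HADHB change at 16 h was -0.90 and under the limit. HADHA was called lower at 16 h alone, where its signals were 1460.2, 943 and 1009.8 against 1940.3, 2545 and 2346 at 0 h (-1.01 ± 0.18, adjusted p = 3.3e-05). That HADHA call rests on the probe set and on single arrays. The other HADHA probe sets gave 0.13 and -1.31 at 16 h, and the mean of the 3 gave -0.73. Without 0 h replicate 2 or 3, or without 16 h replicate 2 or 3, the value lay between -0.98 and -0.89.

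HADHA and HADHB are transcribed away from each other from 1 stretch of chromosome 2. In RefSeq on GRCh38.p14 the start of HADHA on the minus strand lies at position 26244632 and that of HADHB on the plus strand at 26244939, which is 307 bases away. The 250 bases before the start of HADHB (chr2:26244689-26244938, plus strand) lie within this shared stretch and are shown, since both genes were called lower at 16 h. Capitals mark GC boxes (GGGCGG on either strand) and the letters CCAAT on either strand.
HADHB: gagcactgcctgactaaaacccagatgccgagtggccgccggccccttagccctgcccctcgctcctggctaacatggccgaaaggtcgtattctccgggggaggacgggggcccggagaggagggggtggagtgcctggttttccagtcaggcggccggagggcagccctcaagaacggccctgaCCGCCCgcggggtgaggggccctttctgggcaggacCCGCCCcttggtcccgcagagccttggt
Windows of this kind were held for 33 of the 39 genes (48 windows, since some genes have several starts). EHHADH, ACOX2, ACAA1, ETFDH, DECR1 and PEX14 had no entry. The GC box was found in 31 of the 48 windows (64.6%) and in 42.6% of 35116 windows over all genes, and CCAAT in 11 (22.9%) against 32% of all. The nuclear receptor half-site AGGTCA on either strand was found in 1 window, that of ACSL5 (2.08%, against 12.1% of all). The DR1 element, a strict direct repeat of that half-site with any 1 base between the copies and the kind of element bound by PPAR alpha with RXR, was found in 0 windows, against 0.0171% of all. TATAAA was found in 1 window (2.08%, against 10.7% of all). A match in these letters is not a bound site, and the windows leave out distant elements.

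Auxiliary enzymes handle double bonds and ketone bodies. DECR1, a reductase for unsaturated chains, had signals of 7801, 7810.2 and 7773 at 0 h, 7455, 7821 and 9037 at 1 h, 6523, 6322 and 7025 at 4 h, and 4440.4, 5407 and 5528 at 8 h. They were 5231, 4386 and 4484 at 12 h, 4257, 4007 and 5172 at 16 h, 3839, 3591 and 4059 at 24 h, and 2405, 3100.0 and 3438 at 48 h. Its arrays lay below those of 0 h from 4 h on. The change was called at 24 h (-1.02 ± 0.13, adjusted p = 1.1e-07) and 48 h (-1.40 ± 0.13, adjusted p = 1.7e-10). ECI1, an isomerase for unsaturated chains, reached -0.66 ± 0.16 (SE, adjusted p = 0.0015) at 12 h and was not called. ECI2, a related isomerase found in mitochondria and peroxisomes, had signals of 3955, 2953 and 3962 at 0 h, 3587, 3836 and 3981 at 1 h, 3375, 3221 and 3525 at 4 h, and 2171, 3156 and 2743 at 8 h. They were 2899.8, 3147 and 3127 at 12 h, 2865, 2786 and 3342 at 16 h, 3008, 2587 and 2941 at 24 h, and 3174, 3013 and 3262 at 48 h. These overlapped with 0 h at every later time. The largest log2 change was -0.43 ± 0.13 (SE, adjusted p = 0.01) at 8 h.

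BDH1, which interconverts acetoacetate and 3-hydroxybutyrate in mitochondria, was called lower from 12 h on. Its signals were 845, 649.8 and 736 at 0 h, 1019.7, 1007 and 1084 at 1 h, 658, 727 and 938 at 4 h, and 431, 438 and 436 at 8 h. They were 203, 176 and 229 at 12 h, 118, 79.1 and 53.8 at 16 h, 112, 136 and 51.6 at 24 h, and 3.69, 48.9 and 16.0 at 48 h. At 1 h its 3 arrays lay above those of 0 h, and from 8 h on all lay below them. BDH1 changed by -1.79 ± 0.31 (SE, adjusted p = 1.9e-05) at 12 h, -2.95 ± 0.31 (SE, adjusted p = 2.1e-09) at 16 h and -4.37 ± 0.31 (SE, adjusted p = 2e-13) at 48 h. The further fall from 24 h to 48 h was called too (-1.60 ± 0.31, adjusted p = 0.001; 0.873% of all genes were called lower in that step), though not with a larger pseudocount or in a fit of those 6 arrays alone. The 48 h arrays lay below their own 40th percentiles of signal, which were between 58.1 and 69.0 at that time. The size of the last fall is therefore poorly measured. At 16 h and 24 h, where BDH1 was brighter, the change of ACSL1 was at least as large (-3.01 against -2.95 at 16 h, and -3.30 against -2.76 at 24 h).

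In peroxisomes 8 of the 9 measured genes of oxidation were called lower at 16 h (11.9% of all genes). ACOX2, the oxidase for branched chains and bile acid precursors, EHHADH and HSD17B4, the bifunctional enzymes that hydrate and dehydrogenate, and the thiolase ACAA1 were all called lower at 16, 24 and 48 h. EHHADH, a classical target of PPAR alpha, had signals of 3441, 4918 and 4197 at 0 h, 2741, 3693 and 3629.6 at 1 h, 1991, 1307 and 2369 at 4 h, and 1339, 1477 and 958 at 8 h. They were 803, 1012 and 1081 at 12 h, 714, 377 and 877 at 16 h, 506, 558 and 548 at 24 h, and 531, 520.2 and 686 at 48 h. All its arrays lay below those of 0 h from 4 h on, and the mean at 24 h was 12.8% of that at 0 h. Its log2 change was -1.17 ± 0.22 (SE, adjusted p = 0.00012) at 4 h, -1.73 ± 0.22 (SE, adjusted p = 1.8e-07) at 8 h and -2.91 ± 0.22 (SE, adjusted p = 1.8e-12) at 24 h. ACOX2 had signals of 635, 455 and 585 at 0 h, 619, 762 and 574 at 1 h, 434, 436 and 600.1 at 4 h, and 248, 346 and 393 at 8 h. They were 319, 189.8 and 219 at 12 h, 105, 154 and 206 at 16 h, 82.4, 118 and 105 at 24 h, and 36.1, 46.0 and 109.6 at 48 h. From 8 h on no ACOX2 array reached the lowest of 0 h. The log2 change went from -1.16 ± 0.29 (SE, adjusted p = 0.0015) at 12 h to -2.91 ± 0.29 (SE, adjusted p = 5.2e-10) at 48 h. ACAA1 had signals of 8265, 7606 and 9952 at 0 h, 8408, 8945 and 9287 at 1 h, 6560.3, 8013 and 7737 at 4 h, and 5645, 5683 and 5446 at 8 h. They were 4296, 5138 and 4665 at 12 h, 3505, 3683 and 3821 at 16 h, 2087, 2152 and 2503 at 24 h, and 2122, 2133 and 2509.7 at 48 h. They lay below those of 0 h from 8 h on, with a change of -1.22 ± 0.12 (SE, adjusted p = 7.2e-10) at 16 h and -1.92 ± 0.12 (SE, adjusted p = 1.6e-14) at 24 h. The other ACAA1 probe set also gave -1.92 at 24 h. HSD17B4 changed by -1.08 ± 0.13 (SE, adjusted p = 8.7e-08) at 8 h and by -1.83 ± 0.13 (SE, adjusted p = 8.2e-13) at 16 h, its lowest time.

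**Figure D4:**
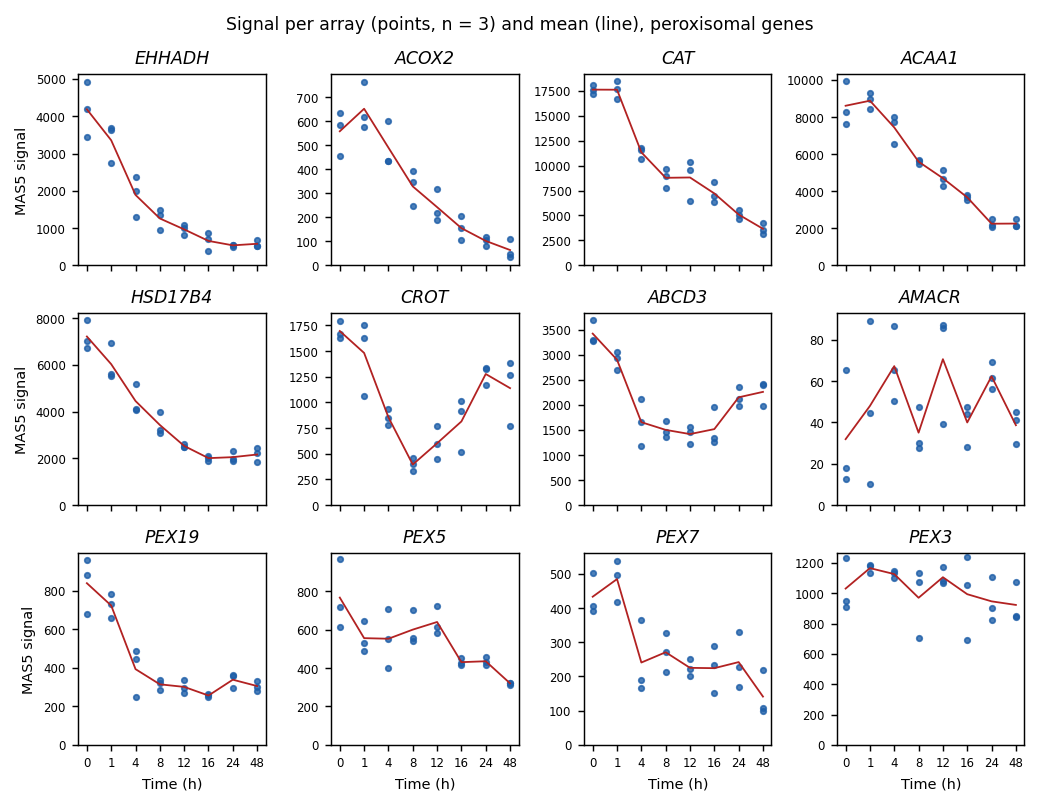
MAS5 signal (vertical axes, linear, from 0) at each time (horizontal axes, hours, evenly spaced) for 8 genes of peroxisomal oxidation and 4 peroxins; points are arrays, n = 3 a time, and lines join the means. EHHADH, ACOX2, CAT, ACAA1 and HSD17B4 are low at 48 h, CROT and ABCD3 have their lowest means at 8 h and 12 h and stand higher at 24 h, and the points of AMACR and PEX3 overlap with those of 0 h at every time.

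CAT, the catalase that breaks down the hydrogen peroxide made by the oxidases, had a mean signal of 17608 ± 456 at 0 h and 3665 ± 551 at 48 h (SD, n = 3). Its signals were 18091, 17548 and 17185 at 0 h, 18456, 17714 and 16626 at 1 h, 11764, 10635 and 11583 at 4 h, and 8913, 7791 and 9616 at 8 h. They were 6468, 9567 and 10385 at 12 h, 6927, 8313 and 6387 at 16 h, 5593, 5043 and 4641 at 24 h, and 3167, 4257 and 3572 at 48 h. All arrays from 4 h on lay below those of 0 h, and the 48 h arrays lay below those of every earlier time. The log2 change was -1.01 ± 0.14 (SE, adjusted p = 9.7e-07) at 8 h and -2.27 ± 0.14 (SE, adjusted p = 1.2e-14) at 48 h. The other tested CAT probe set gave -0.47 at 8 h, -0.71 at 12 h and -1.59 at 48 h, so the time of the first call depends on the probe set. PHYH, which starts the alpha-oxidation of phytanic acid, was called lower at 16 h and 48 h (-1.13 ± 0.15, adjusted p = 1e-07 at 48 h). Its signals were 3837, 3612 and 3468 at 0 h, 3650.3, 3728 and 3418 at 1 h, 3075, 2563 and 2695 at 4 h, and 2396, 1899 and 1829 at 8 h. They were 1787, 2229 and 1784 at 12 h, 1477, 1864 and 1822 at 16 h, 1771, 1549 and 2231 at 24 h, and 1572, 1944 and 1466 at 48 h. They lay below those of 0 h from 4 h on, but with median centring the change at 48 h was -0.99 and under the limit.

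CROT and ABCD3 had another time course. CROT moves shortened chains onto carnitine so that they can leave the peroxisome. Its signals were 1666, 1795 and 1625 at 0 h, 1062, 1628 and 1755 at 1 h, 934, 781 and 851 at 4 h, and 333, 455 and 397 at 8 h. They were 592, 770.4 and 445 at 12 h, 518, 915 and 1011 at 16 h, 1321, 1338 and 1171 at 24 h, and 772, 1262 and 1383 at 48 h. The mean was lowest at 8 h, and those of 24 h lay above all arrays from 4 h to 16 h, though still below those of 0 h. CROT changed by -2.06 ± 0.22 (SE, adjusted p = 4.9e-09) at 8 h, -1.09 ± 0.22 (SE, adjusted p = 0.00016) at 16 h and -0.41 ± 0.22 (SE, adjusted p = 0.16) at 24 h, where it was not called. Both legs of this course were tested without the 0 h arrays. limma called the fall from 4 h to 8 h (-1.09 ± 0.22, adjusted p = 0.0012; 1.94% of all genes were called lower and 1.28% higher) and the rise from 8 h to 24 h (1.66 ± 0.22, adjusted p = 7.8e-07; 5.52% of all genes were called higher). The fall from 4 h to 8 h was not called with a larger pseudocount or without 8 h replicate 1. The comparison of 8 h with 24 h was added after the values had been seen. ABCD3, the transporter that brings long-chain acyl-CoA into the peroxisome, was called lower from 4 h to 16 h, with -1.27 ± 0.17 (SE, adjusted p = 2.3e-07) at 12 h. At 48 h its log2 change was -0.60 ± 0.17 (SE, adjusted p = 0.0046). Its signals were 3274, 3703 and 3293 at 0 h, 1225, 1465 and 1563 at 12 h and 2415, 1971 and 2395 at 48 h. The 48 h arrays lay above those of 12 h and below those of 0 h.

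The 250 bases before the starts of CAT (chr11:34438684-34438933, plus strand) and CROT (chr7:87345414-87345663, plus strand) are shown for these different courses, from RefSeq on GRCh38.p14 and with the same motifs in capitals. The CAT window holds CCAAT 5 times and the GC box 1 time, and the CROT window holds CCAAT 1 time and the GC box 3 times.
CAT: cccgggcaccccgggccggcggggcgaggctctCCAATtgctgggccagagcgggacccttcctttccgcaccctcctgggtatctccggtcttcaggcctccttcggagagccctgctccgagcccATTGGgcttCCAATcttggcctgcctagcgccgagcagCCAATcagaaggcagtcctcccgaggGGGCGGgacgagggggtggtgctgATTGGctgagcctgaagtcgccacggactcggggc
CROT: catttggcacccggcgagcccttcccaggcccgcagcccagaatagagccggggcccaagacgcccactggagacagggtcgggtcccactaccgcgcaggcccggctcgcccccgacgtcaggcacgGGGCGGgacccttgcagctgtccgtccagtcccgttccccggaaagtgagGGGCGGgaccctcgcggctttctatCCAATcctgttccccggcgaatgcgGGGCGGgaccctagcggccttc

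AMACR, the racemase that turns branched chains into the form the oxidases accept, was the only gene of peroxisomal oxidation that was never called. Its signals were 65.1, 12.5 and 18.1 at 0 h, 88.8, 10.3 and 44.8 at 1 h, 50.1, 65.1 and 86.4 at 4 h, and 27.4, 30.1 and 47.5 at 8 h. They were 87.0, 39.0 and 85.6 at 12 h, 27.9, 44.3 and 47.6 at 16 h, 56.1, 69.1 and 61.6 at 24 h, and 41.1, 29.7 and 45.1 at 48 h. Only 4 of the 24 arrays exceeded their own 40th percentile, and the values overlapped with those of 0 h at all times. The largest log2 change, 0.92 ± 0.50 (SE, adjusted p = 0.16) at 12 h, lay above 0.

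Of the 7 measured peroxins 1 was called lower at each time from 4 h to 24 h (7.1% to 11.9% of all genes) and 4 at 48 h (11.7% of all genes). At 48 h the second probe sets of PEX7, PEX11A and PEX19 stayed under 2-fold, so that count depends on the probe set. PEX19, the chaperone that delivers membrane proteins to the peroxisome, was called lower at every time from 4 h on. Its signals were 677, 959.8 and 879 at 0 h, 658, 729 and 781 at 1 h, 443, 488 and 247 at 4 h, and 287, 335 and 319.6 at 8 h. They were 338, 296 and 268 at 12 h, 258, 262 and 248 at 16 h, 295, 362 and 357 at 24 h, and 334, 301 and 280.2 at 48 h. From 4 h on every array lay below the lowest 0 h array. The log2 change was -1.10 ± 0.21 (SE, adjusted p = 9e-05) at 4 h and -1.63 ± 0.21 (SE, adjusted p = 9.5e-08) at 16 h (-0.98 for the other probe set). PEX5 and PEX7 are the receptors that recognise the targeting signals of peroxisomal enzymes. PEX7 had signals of 405, 393 and 502 at 0 h, 497, 539 and 418 at 1 h, 190.5, 364 and 167 at 4 h, and 212, 328 and 272 at 8 h. They were 252, 203 and 221 at 12 h, 289, 151 and 232 at 16 h, 169, 329 and 227 at 24 h, and 219, 97.7 and 107 at 48 h. All arrays from 4 h on lay below those of 0 h. It was called at 48 h (-1.57 ± 0.30, adjusted p = 5.4e-05), while its other probe set gave -0.73 there. PEX7 was also called in the step from 1 h to 4 h (-1.03 ± 0.30, adjusted p = 0.0089), where 4.44% of all genes were called lower and 6.48% higher. That step was not called with a larger pseudocount, with median centring or with the mean of the PEX7 probe sets, nor without 1 h replicate 2, 4 h replicate 1 or 4 h replicate 3. PEX5 had signals of 614, 967 and 719.9 at 0 h, 491, 645 and 531 at 1 h, 401, 549 and 708 at 4 h, and 542, 702 and 556 at 8 h. They were 582, 614 and 724 at 12 h, 425, 451 and 416 at 16 h, 431, 460.1 and 415 at 24 h, and 323, 314 and 324 at 48 h. Its arrays of 16, 24 and 48 h lay below those of 0 h, and it was called at 48 h (-1.19 ± 0.19, adjusted p = 5.7e-06).

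PEX11A, which elongates peroxisomes before they divide, was called lower at 48 h (-1.13 ± 0.30, adjusted p = 0.0028). Its dimmer probe set gave -0.42 at 48 h. For PEX11A 6 alternatives gave less than 2-fold, among them leaving out 0 h replicate 1 (-0.95) or 48 h replicate 2 (-0.93). PEX6, part of the motor that recycles the receptors, reached -0.83 ± 0.23 (SE, adjusted p = 0.0046) at 24 h and was not called, while its dimmer probe set gave -1.41 at 48 h. PEX3, the membrane anchor for PEX19, had signals of 1233, 911 and 949.6 at 0 h, 1131, 1185 and 1182 at 1 h, 1137, 1098 and 1146 at 4 h, and 703, 1131 and 1077 at 8 h. They were 1079, 1175 and 1065 at 12 h, 1052, 691 and 1239 at 16 h, 904, 827 and 1110.2 at 24 h, and 1077, 842 and 851 at 48 h. PEX14, part of the docking complex, had signals of 385, 229 and 298 at 0 h, 271, 177 and 357 at 1 h, 273, 341 and 420.3 at 4 h, and 309, 154 and 386 at 8 h. They were 278, 365 and 312 at 12 h, 229.6, 281 and 244 at 16 h, 278, 392 and 241 at 24 h, and 308, 305 and 295 at 48 h. Both overlapped with 0 h at every time, with largest log2 changes of 0.19 ± 0.18 (SE, adjusted p = 0.69) at 1 h for PEX3 and -0.23 ± 0.28 (SE, adjusted p = 0.54) at 16 h for PEX14. Their other probe sets gave 1.74 and 0.27 at 1 h for PEX3, and -0.67 at 16 h and -1.08 at 24 h for PEX14.

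Neighbouring times were also compared with each other, without the 0 h arrays. Besides PEX7 from 1 h to 4 h and CROT from 4 h to 8 h, limma called 0 of the 39 genes in the steps from 8 h to 12 h, from 12 h to 16 h and from 16 h to 24 h. Over all genes these steps had 0.171% lower and 0.311% higher, 0.13% lower and 0.11% higher, and 0.492% lower and 0.823% higher. At an unadjusted p under 0.05 the 39 genes had, in the same order, 9 lower and 1 higher, 9 lower and 0 higher and 5 lower and 3 higher. From 24 h to 48 h BDH1 was called lower and ACSL1 higher. Between 1 h and 48 h 15 of the 39 genes were called lower and 0 higher, against 11.5% and 10.8% of all genes. The largest of these were BDH1 (-4.85 ± 0.31), ACOX2 (-3.13 ± 0.29), EHHADH (-2.50 ± 0.22), CAT (-2.27 ± 0.14) and ACSL1 (-2.13 ± 0.17), on the log2 scale with SE. From 8 h to 24 h ACSL1, BDH1, ACAA1, EHHADH and ACOX2 were called lower, against 3.92% of all genes.

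Other genes of these pathways were read from lists apart from the 42. Of 15 measured genes for uptake, activation and mitochondrial oxidation 12 were called lower at 16 h (11.9% of all genes) and 10 at 48 h (11.7% of all genes), with a median log2 change of -1.35 at 16 h and -1.30 at 48 h. FABP1, the fatty acid binding protein of liver, had the deepest change (-7.10 ± 0.20, adjusted p = 8.1e-24 at 48 h), from signals of 23332, 21688 and 28014 at 0 h to 115, 125 and 274 at 48 h. ACSM5, a medium-chain synthetase (-3.80 ± 0.23, adjusted p = 2.5e-15 at 48 h), ACACB, which makes the malonyl-CoA that inhibits CPT1 (-2.97 ± 0.22, adjusted p = 1.5e-12 at 16 h), and SLC27A5, a very-long-chain and bile acid synthetase (-2.60 ± 0.43, adjusted p = 7.4e-06 at 48 h), fell as well. CD36, a fatty acid receptor, was the 1 gene of that list called higher, from 4 h to 24 h, but it is poorly measured. Its 0 h signals of 9.35, 3.44 and 19.0 lay far below the 40th percentiles of those arrays (81.9 to 91.3), so no fold is given, and 1 of its 3 probe sets changed the other way. Of 2 measured genes of ketone body metabolism BDH2 was called lower at 24 h (-1.37 ± 0.19, adjusted p = 3e-07), where 11.2% of all genes were called lower.

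Of 27 other peroxisomal genes 13 were called lower at 16 h (11.9% of all genes) and 14 at 48 h (11.7% of all genes), with a median log2 change of -0.95 at 16 h and -1.10 at 48 h. AGXT, which detoxifies glyoxylate (-5.14 ± 0.21, adjusted p = 1.8e-19 at 48 h), PIPOX, an oxidase of pipecolic acid and sarcosine (-4.34 ± 0.18, adjusted p = 4.3e-19 at 48 h), HAO1, the glycolate oxidase (-3.49 ± 0.18, adjusted p = 9.3e-17 at 48 h), and EPHX2, an epoxide hydrolase (-3.40 ± 0.28, adjusted p = 5.1e-12 at 24 h), changed most. AGPS, an enzyme of ether lipid synthesis, was called higher at 12, 24 and 48 h (1.37 ± 0.27, adjusted p = 8.6e-05 at 48 h) and SLC25A17, a carrier of the peroxisomal membrane, at 48 h (1.06 ± 0.28, adjusted p = 0.0026). A dimmer probe set of SLC25A17 gave 0.20 at 48 h. Of 4 further peroxins PEX2, an import ligase subunit, was called lower at 4 h (-1.09 ± 0.19, adjusted p = 2.2e-05) and PEX16, a membrane biogenesis factor, at 24 h (-1.23 ± 0.16, adjusted p = 7.7e-08). The dimmer PEX16 probe sets gave -1.36 and -0.46 at 24 h. Over all genes 7.1% were called lower at 4 h and 11.2% at 24 h. Of 4 genes of peroxisome division limma called 0 at any time. At 48 h 0 were lower and 1 higher at an unadjusted p under 0.05, while 11.7% of all genes were called lower and 9.82% higher. Of 18 genes for other mitochondrial functions, a list of respiratory chain, import and maintenance genes, limma called 0 lower at any time, with 8 lower at an unadjusted p under 0.05 at 16 h, where their median log2 change was -0.20. TFAM, the packaging factor of mitochondrial DNA (1.61 ± 0.21, adjusted p = 9.6e-08), and TOMM22, an import receptor (1.43 ± 0.25, adjusted p = 2.4e-05), were called higher at 48 h. Of all genes 9.82% were called higher then. Both genes had passed 2-fold earlier. The log2 change of TOMM22 was already 1.27 by 8 h, peaked with 1.46 at 12 h and was down to 0.89 by 24 h. That of TFAM was 1.09 by 12 h and 1.41 by 16 h.

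Among 11 regulators of these pathways 1 was called lower and 2 higher at 4 h (all genes: 7.1% and 7.6%). At 24 h 4 were lower and 1 higher (all genes: 11.2% and 10.4%), and at 48 h 3 were lower and 1 higher (all genes: 11.7% and 9.82%). The median log2 change was -0.77 at 24 h and -0.78 at 48 h, and with 11 genes these counts are small. PPARA, the gene of PPAR alpha, had signals of 172, 213 and 183 at 0 h, 92.5, 223 and 217 at 1 h, 91.2, 36.5 and 159 at 4 h, and 70.6, 15.3 and 33.2 at 8 h. They were 7.02, 93.8 and 88.1 at 12 h, 90.7, 116 and 11.9 at 16 h, 66.3, 109 and 54.9 at 24 h, and 60.0, 98.7 and 106 at 48 h. All 3 arrays of 8 h lay below those of 0 h. The log2 change there was -1.96 ± 0.55 (SE, adjusted p = 0.0052), and the gene was called at 8, 12 and 16 h. PPARGC1A, a coactivator of PPAR alpha, had signals of 196, 281 and 165 at 0 h, 526, 398 and 518 at 1 h, 155, 71.8 and 65.9 at 4 h, and 37.5, 26.4 and 7.88 at 8 h. They were 32.8, 8.55 and 57.1 at 12 h, 31.5, 18.5 and 41.4 at 16 h, 67.2, 123 and 86.4 at 24 h, and 137, 101 and 84.1 at 48 h. All 3 arrays of 1 h lay above those of 0 h (1.12 ± 0.41, adjusted p = 0.13, not called) and those of 8 h far below them (-2.51 ± 0.41, adjusted p = 9.6e-06). LPIN1, another coactivator, changed by -1.88 ± 0.19 (SE, adjusted p = 1.2e-09) at 24 h. PPARG, the related receptor of fat cells, was called higher at every time, with 2.62 ± 0.24 (SE, adjusted p = 1.3e-10) at 4 h. PPARD, the third receptor of this family, was called higher at 4 h, with signals of 1058, 1034 and 1142 at 0 h and 2365, 2492 and 2823 at 4 h (1.23 ± 0.16, adjusted p = 2.8e-07, and 0.26 for a dimmer probe set). The 13 known targets of PPAR alpha outside the 42 genes were counted in the same way. At 4 h 0 were called lower and 5 higher (all genes: 7.1% lower and 7.6% higher), with a median log2 change of 0.51. At 16 h 5 were called lower and 2 higher (all genes: 11.9% and 9.19%), with a median of -0.93, and at 48 h 7 lower and 1 higher (all genes: 11.7% and 9.82%). Of the 5 called higher at 4 h PLIN2, VNN1 and G0S2 were named after their values were seen. PLIN2, a coat protein of lipid droplets, had signals of 4204, 5075 and 4139 at 0 h and 18031, 18444 and 17670.3 at 1 h (2.01 ± 0.15, adjusted p = 3.7e-12), and a dim second probe set gave -0.89 at 1 h. VNN1, a pantetheinase, changed by 1.29 ± 0.14 (SE, adjusted p = 1.3e-08) at 4 h and by -1.69 ± 0.14 (SE, adjusted p = 1.7e-11) at 48 h. G0S2, an inhibitor of fat breakdown, changed by 1.32 ± 0.20 (SE, adjusted p = 5e-06) at 4 h and by -2.31 ± 0.20 (SE, adjusted p = 4.1e-11) at 24 h. FABP1 is among the 13 targets, as is TXNIP, a binding protein of thioredoxin (-2.37 ± 0.35, adjusted p = 1.4e-06 at 16 h). ANGPTL4, an inhibitor of lipoprotein lipase, was called higher from 4 h to 48 h (2.80 ± 0.19, adjusted p = 2.2e-13 at 12 h), and CIDEC, a lipid droplet protein, from 4 h to 16 h (2.34 ± 0.13, adjusted p = 2.2e-15 at 8 h). PDK4, the kinase that turns off pyruvate dehydrogenase when fat is burned, had signals of 162, 112 and 70.6 at 0 h, 355, 263 and 354 at 1 h, 11.5, 70.8 and 60.5 at 4 h, and 5.85, 3.81 and 60.2 at 8 h. They were 9.51, 11.7 and 13.9 at 12 h, 55.6, 48.6 and 28.9 at 16 h, 10.4, 3.32 and 13.4 at 24 h, and 48.8, 36.2 and 11.7 at 48 h. Its log2 change was 1.41 ± 0.53 (SE, adjusted p = 0.14) at 1 h, where it was not called, and -2.26 ± 0.53 (SE, adjusted p = 0.00084) at 24 h.

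**Figure D5:**
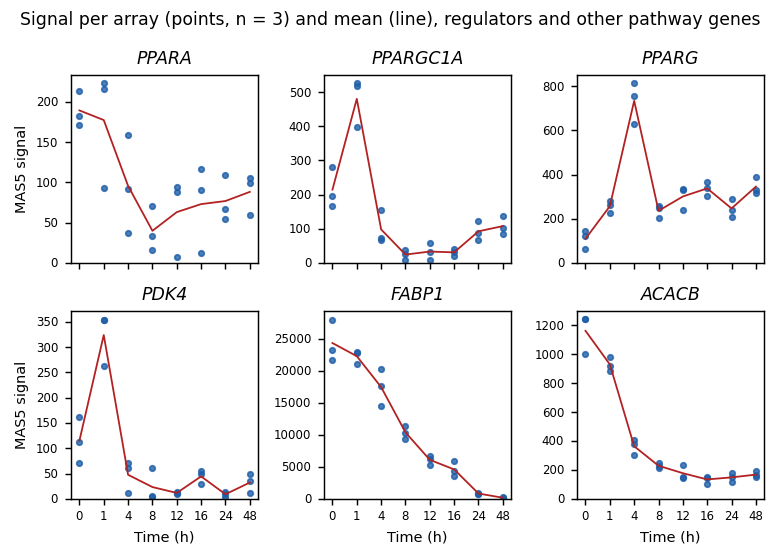
MAS5 signal (vertical axes, linear, from 0) at each time (horizontal axes, hours, evenly spaced) for 3 nuclear receptor or coactivator genes (PPARA, PPARGC1A, PPARG) and 3 other genes of fat metabolism (PDK4, FABP1, ACACB); points are arrays, n = 3 a time, and lines join the means. PPARGC1A and PDK4 have their highest means at 1 h, PPARG at 4 h, and FABP1 and ACACB fall from the first hours on.

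Other measures moved with these genes. All 11 measured hepatocyte markers, ALB among the list, were called lower at 48 h (11.7% of all genes). Their summed signal per array went from 400830 to 442219 at 0 h to 121004 to 135529 at 48 h. The sum over 7 cholangiocyte markers went from 4736 to 5285 at 0 h to 20272 to 25843 at 4 h and 16202 to 20579 at 48 h, with 5 called higher at 4 h (7.6% of all genes) and 2 at 48 h (9.82% of all genes). Most of that sum was KRT19, with signals of 3102, 3500 and 3469 at 0 h and 16577, 13763 and 18096 at 48 h. The log2 changes at 48 h were 2.25 for KRT19, 1.33 for KRT7, 0.87 for SPP1, 0.27 for KRT23 and 0.26 for MUC1. SOX9 (-0.42) and AQP1 (-0.95) went the other way. The sums over 9 mesenchymal markers were 2079 to 2359 at 0 h and 3876 to 5134 at 48 h, with 3 called higher at 48 h (9.82% of all genes). Those over 4 endothelial markers were 481 to 634 at 0 h and 86.8 to 194 at 48 h. The 3 leukocyte markers summed to 461 to 664 at 0 h and 245 to 325 at 48 h, and no marker was at 0. These 2 sums hold dim genes and are poorly measured. At 48 h all arrays of KDR, STAB2 and LYVE1 (endothelial) and of CD79A (leukocyte) lay below their own 40th percentiles (58.1 to 69.0). The CD79A arrays did so at 0 h as well. The part of these changes in the fall of the 39 genes was not tested. In such samples fewer cells of a type and less RNA per cell cannot be told apart.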

How the data were processed

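RNA of 24 HepaRG samples, 3 for each of 8 times, was read on a 1-colour Affymetrix expression array. The deposited table holds linear intensities (signals), made with MAS5 per the submitters' processing notes, whose version is not given in the sources used here. The trimmed mean signal of every array was close to 500.2, so arrays had been scaled to a common level before deposit, and no other normalization was added.

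The tests used log2(signal + 18), with the 20th percentile of all signals as the pseudocount, a scale that understates changes of dim genes. Probe sets were kept where 3 or more of 24 arrays lay above their own 40th percentile, as 17122 of 22215 did. The annotation table gave 19065 probe sets 1 gene symbol, 1043 several and 2107 none. Each gene was read from its brightest tested probe set, which left 9966 genes. All 39 measured genes passed this filter, with 60 of their 63 probe sets. Of the 16 genes with several tested probe sets 14 had the same sign in all of them at the time of their largest change, and CPT1A and HADHA did not.

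limma 3.58.1 (R 4.3.3) was run over all 24 arrays (lmFit, eBayes with a mean-variance trend, two-sided), with Benjamini-Hochberg adjustment over the 9966 genes. The replicate numbers were not used as a block: same-numbered arrays of different times had correlations of their deviations between -0.067 and 0.065 over 84 pairs. Genes were named by a rule: every measured gene at least once, values of all arrays for those with the largest change in each group (8, 5 and 3) and the 2 with the smallest, and up to 4 called genes from each other list, with PPARA, PPARGC1A and PDK4 always. CD36, AGPS, SLC25A17, TFAM and TOMM22 are given as the genes called higher in their lists, and PLIN2, VNN1, G0S2 and PPARD were added after their values were seen. The genes and lists were chosen with earlier results of these data known, and the comparison of 8 h with 24 h was added after seeing the values. Promoter windows are the 250 bases before a RefSeq start on GRCh38.p14, and motifs were searched as plain letters on both strands. The alternatives changed the pseudocount (none, or 74.1 from the 40th percentile), the scaling (quantile or median centring), the filter (none or stricter) and the summary of probe sets (their mean). Others took out the variance trend, fitted only the groups compared, added the replicate block or left out each array. matplotlib 3.10.9 (Python 3.11.15) drew the figures. The number of arrays limits the precision.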

Additional observations from a re-analysis of the deposited data

How the results depend on the processing

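The counts of genes called lower at 8, 12, 24 and 48 h, and the 0 genes called higher than at 0 h, stayed within 1.5 times their values under all alternatives that keep all arrays. Median centring lowered the counts at these 4 times, from 9, 12, 18 and 19 to 6, 11, 13 and 14. With median centring 1 gene was called lower at 4 h (4 as reported, 5 with quantile normalization) and 13 at 16 h (21 as reported, 20 with quantile normalization). From 1 h to 4 h the 1 gene called became 2 with no pseudocount and 0 with a larger pseudocount, median centring or the mean of probe sets. From 4 h to 8 h it became 0 with a larger pseudocount. From 8 h to 12 h a fit of only the groups compared called 1 (0 as reported), and from 24 h to 48 h that fit and the larger pseudocount each called 1 (2 as reported). The cause was not tested. For single genes 1 change against 0 h was followed under each alternative, that at the gene's time of largest change. Of these values 599 kept their side of the threshold, 21 lost the call, 3 gained it and 0 turned their sign. Changes at the other times are not in these numbers.

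Leaving out 1 array at a time gave 0 genes lower at 1 h, 3 to 6 at 4 h, 8 to 10 at 8 h, 11 to 15 at 12 h, 20 to 21 at 16 h, 17 to 20 at 24 h and 17 to 20 at 48 h, and 0 higher throughout. It gave 15 to 16 for 48 h against 1 h, 6 to 7 from 8 h to 24 h, and 34 to 36 by the F-test. For the steps it gave 0 to 3 from 1 h to 4 h, 0 to 1 from 4 h to 8 h, 0 to 1 from 12 h to 16 h and 1 to 3 from 24 h to 48 h. The step from 1 h to 4 h called 0 without 1 h replicate 2, 2 without 1 h replicate 1, 1 h replicate 3 or 4 h replicate 3, and 3 without 4 h replicate 2. That from 12 h to 16 h called 1 without 12 h replicate 1 or 16 h replicate 1.

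With the replicate number as a block the counts were the same at every time (21 lower at 16 h, 19 at 48 h), and the F-test passed for 36 genes. The block changed no other count of calls. No pair of same-numbered arrays of different times had deviations that correlated above 0.1. A weak shared effect could be hidden in such a check, so it cannot tell whether same-numbered arrays belong together.

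Array signals give no depth. Genes with signals near the pseudocount, AMACR throughout, CD36 at 0 h and BDH1, ACOX2, PPARA, PPARGC1A and PDK4 at their lowest times, have poorly measured changes. The ACTB ratio, the marker sums and time move together and cannot be told apart here.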
